A study of Mus musculus with 12 samples.

Results

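The genes described here are 10 genes of the hepatocytes around the central vein of the liver lobule, or of the Wnt signal that maintains them: Glul, Gulo, Slc1a2, Tbx3, Lect2, Rgn, Axin2, Lgr5, Cyp2e1 and Rhbg. They were chosen by name, with earlier results of these data known. A probe set was used where the array annotation assigned it to that gene alone. All 10 were measured, among 22180 genes in all. Total RNA from 12 samples of whole liver was hybridised to Affymetrix arrays, with 3 samples in each of 4 groups. All mice were males of 2 months on a C57Bl/6N background, carried floxed p53 alleles (p53 fl/fl, Trp53tm1Brn) and received an adenovirus through the tail vein. The virus expressed GFP (Adeno-GFP, p53 left intact) or Cre recombinase (Adeno-Cre, p53 deleted in the cells that took up the virus), at equal titers. At 3 days after injection the mice either kept free access to chow or had it withdrawn for 24 h, which gave the groups Adeno-GFP fed, Adeno-Cre fed, Adeno-GFP fasted and Adeno-Cre fasted. The promoter that drove Cre is not given in the sources used here, and every control mouse also carried the floxed alleles and a virus. The design asks how loss of p53 in liver alters gene expression under each diet. Trp53 itself was not analysed here, so the deletion was not checked on these arrays.

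Hepatocytes along the lobule divide their work, and the cells next to the central vein are set apart by Wnt ligands and R-spondins released mainly by the endothelium of that vein. The ligands act through Frizzled and LRP receptors, R-spondins act through LGR receptors, and β-catenin then activates genes together with TCF/LEF factors. The innermost hepatocytes take up ammonia that escaped the urea cycle and fix it into glutamine, and pericentral cells also carry much of the cytochrome P450 system.

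The 12 arrays had similar distributions, with array medians between 6.26 and 6.33 on the deposited log2 scale. Within each group, the correlation between arrays across genes was 0.991 to 0.994. A log2 difference of 1 is a doubling of the signal. Pan-hepatocyte markers averaged 11.96 to 12.16 per array over 9 genes, against 5.46 to 5.90 for 4 B cell markers and 4.87 to 5.58 for 6 neutrophil markers, all of which had means under the median gene mean of 6.51. Axin2, with a mean of 6.31, was also under that median and Rhbg, with 6.68, was close to it. No detection call was made, so the size of change of these 2 dim genes is uncertain. In bulk liver, fewer cells of a type and less RNA per cell cannot be told apart. The labels number the samples of a group without saying that each is a separate mouse, so p-values measure the spread between these samples, which may be technical in part.

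RefSeq promoter sequences (build GRCm38.p6, 250 bases upstream of the start) were found for 5 of the 10 genes: Glul, Slc1a2, Lect2, Axin2 and Cyp2e1. They were searched for the TCF/LEF core CTTTGAT and the TATA box TATAAA on both strands, and for the p53 half-site, which had 0 matches in these 5 and a match in 7.13% of all 32851 promoters of that length. The TCF/LEF core was found in Slc1a2 and Lect2, and in 3.21% of all promoters. Both matches lay on the minus strand relative to the gene, at bases -207 to -201 in Slc1a2 and at bases -32 to -26 in Lect2. The TATA box was found in Cyp2e1 alone of the 5, at bases -31 to -26, and in 12.4% of all promoters. The promoters of Slc1a2 (chr2:102706188-102706437, plus strand) and Lect2 (chr13:56548539-56548788, minus strand) are shown because both genes were lower with Adeno-Cre and hold the core. Those of Glul (chr1:153899679-153899928, plus strand) and Cyp2e1 (chr7:140763569-140763818, plus strand) are shown beside them as a glutamine synthesis gene that was lower and a P450 gene that did not pass the test. Capitals mark the TCF/LEF core, read here as its reverse complement, in the first pair and the TATA box in Cyp2e1.
Slc1a2: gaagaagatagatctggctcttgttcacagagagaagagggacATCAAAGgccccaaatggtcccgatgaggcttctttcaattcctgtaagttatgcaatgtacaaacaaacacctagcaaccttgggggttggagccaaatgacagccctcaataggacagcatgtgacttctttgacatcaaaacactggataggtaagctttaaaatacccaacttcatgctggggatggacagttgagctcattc
Lect2: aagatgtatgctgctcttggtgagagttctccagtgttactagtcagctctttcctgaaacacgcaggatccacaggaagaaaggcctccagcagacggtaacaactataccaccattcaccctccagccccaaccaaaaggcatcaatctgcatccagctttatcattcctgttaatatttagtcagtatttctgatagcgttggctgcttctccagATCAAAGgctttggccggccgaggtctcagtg
Glul: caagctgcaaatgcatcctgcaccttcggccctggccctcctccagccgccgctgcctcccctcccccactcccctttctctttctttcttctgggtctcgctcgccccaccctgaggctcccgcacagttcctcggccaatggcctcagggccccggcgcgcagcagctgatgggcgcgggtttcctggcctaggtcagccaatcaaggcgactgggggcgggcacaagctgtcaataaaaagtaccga
Cyp2e1: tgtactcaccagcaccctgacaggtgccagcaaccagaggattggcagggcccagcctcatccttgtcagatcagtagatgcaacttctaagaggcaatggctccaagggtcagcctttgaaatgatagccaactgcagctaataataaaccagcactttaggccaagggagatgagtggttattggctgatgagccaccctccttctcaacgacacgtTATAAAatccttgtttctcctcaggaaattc
These stretches differed in composition: GC content was 64.8% in Glul with 15 CpG, 44.8% in Slc1a2 with 1 CpG, 48% in Lect2 with 5 CpG and 48.8% in Cyp2e1 with 2 CpG. The Axin2 stretch (chr11:108920099-108920348, plus strand) had 69.2% GC and 24 CpG, and the median over all promoters was 52.4% and 6 CpG. A match is a description of the letters, and the absence of a match says only that those letters are not in this window.

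Most of these genes were lower with Adeno-Cre than with Adeno-GFP on average over the diets, and the largest changes were those of Gulo, Tbx3, Lgr5 and Slc1a2. Averaged over both diets, 8 of the 10 genes fell past an adjusted p of 0.05 (limma, Benjamini-Hochberg over 22180 genes), all but Axin2 and Cyp2e1, and 0 rose. Over all genes, 2.03% were lower and 3.55% higher by the same rule. Because the 10 genes were chosen with earlier results of these data known, shares set beside those of all genes are descriptions. All 10 estimates were negative in each diet, with a median log2 change of -0.30 in fed and -0.24 in fasted mice, against medians of -0.02 and -0.03 over all genes, of which 55.6% and 58.4% were negative. In fed mice Gulo, Tbx3 and Lect2 passed the threshold as lower (background 0.415% lower, 1.08% higher). In fasted mice Gulo, Slc1a2 and Rgn passed it (background 0.482% lower, 2.26% higher). Without single arrays the number of genes past the threshold ranged from 0 to 4 in fed mice, 0 to 2 in fasted mice and 4 to 7 on average. With only the groups compared in the fit it was 0 in either diet, and in a fit of all 41345 probe sets it was 0, 1 and 4. In the fed comparison 9 of the 10 genes had all 3 Adeno-Cre arrays under all 3 Adeno-GFP arrays, against 11.5% of all genes, and in the fasted comparison 6 of the 10 did, against 10.9%.

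**Figure D1:**
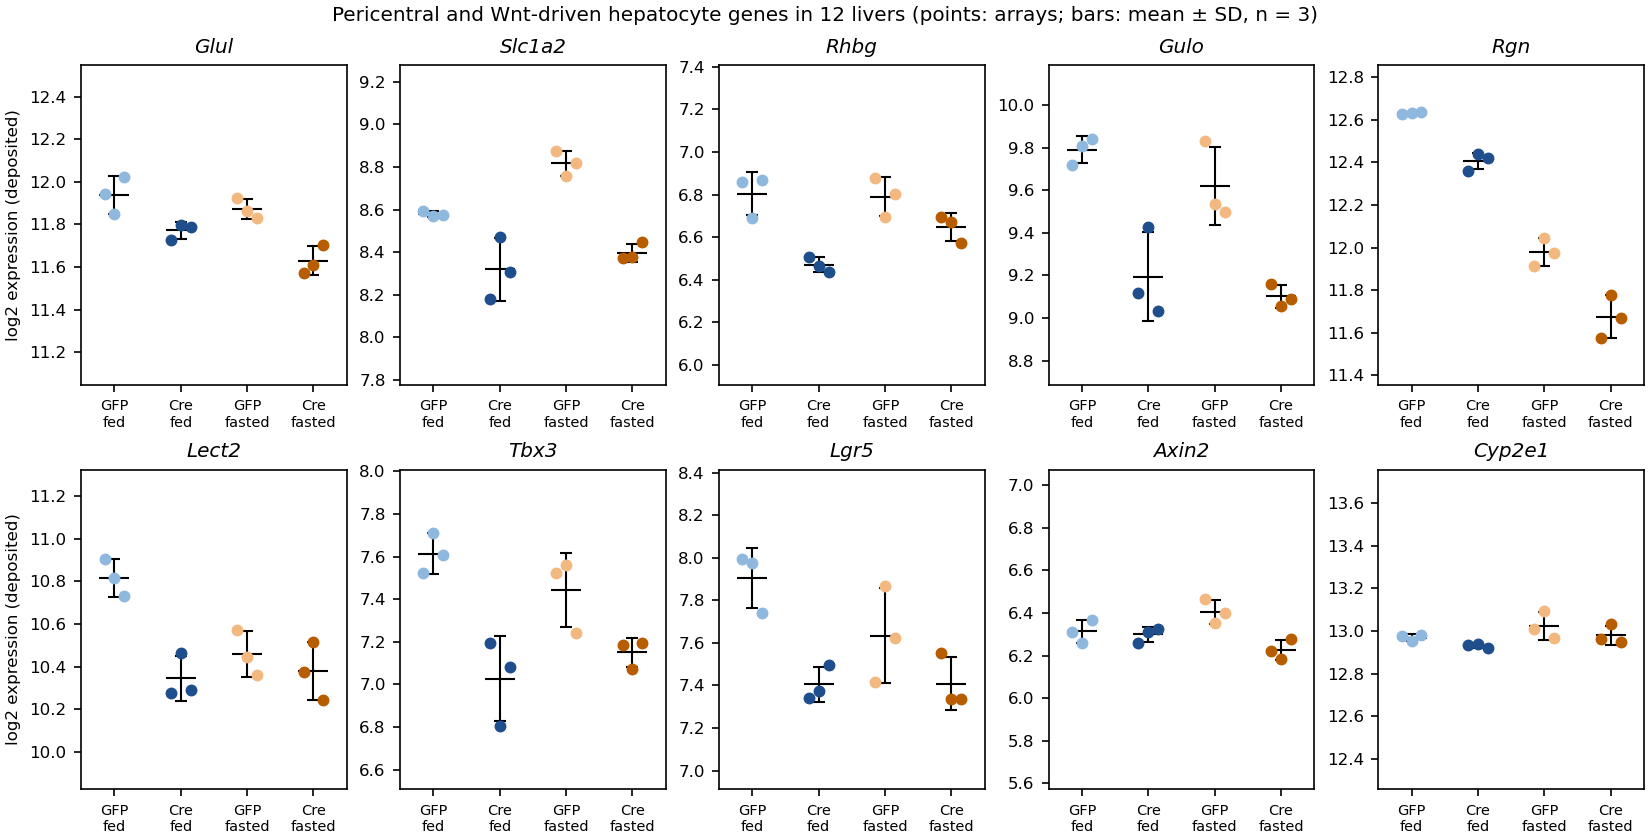
Expression level (log2, RMA) of the 10 genes in each of the 12 arrays, 1 panel per gene with its own axis, arranged by injection and diet; points are arrays and bars are group means with SD (n = 3). Gulo is between 9.03 and 9.43 in the fed Adeno-Cre arrays and between 9.72 and 9.84 in the fed Adeno-GFP arrays, and Rgn falls stepwise over the 4 groups.

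Of the genes of ammonia and glutamine handling, Glul encodes glutamine synthetase, the enzyme that fixes ammonia into glutamine in the innermost pericentral hepatocytes. Its level was 11.94, 11.85 and 12.02 in the Adeno-GFP fed arrays and 11.73, 11.80 and 11.79 in the Adeno-Cre fed arrays. After fasting it was 11.93, 11.86 and 11.83 with Adeno-GFP and 11.57, 11.61 and 11.70 with Adeno-Cre. All Adeno-Cre arrays were under all Adeno-GFP arrays of the same diet, and the gaps were narrow. The log2 change was -0.17 ± 0.07 (SE) in fed mice (limma adjusted p = 0.379) and -0.25 ± 0.07 in fasted mice (limma adjusted p = 0.11). On average over the diets Glul fell by 0.21 ± 0.05 on the log2 scale, 1.15-fold lower (limma adjusted p = 0.0386). This call was lost when any array was left out other than Adeno-Cre fasted replicate 3 or Adeno-GFP fed replicate 2, with adjusted p between 0.032 and 0.0988. In the fit over all probe sets, a second Glul probe set had a change of -0.19 over both diets (limma adjusted p = 0.216). The one used had an adjusted p of 0.0742 in that fit (limma).

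Slc1a2 encodes the glutamate transporter GLT-1, which in liver is found on pericentral hepatocytes. It was tightly grouped in the fed control arrays, at 8.60, 8.57 and 8.57, and stood at 8.18, 8.47 and 8.31 in the Adeno-Cre fed arrays. In fasted mice its level was 8.88, 8.76 and 8.82 with Adeno-GFP and 8.37, 8.38 and 8.45 with Adeno-Cre. The groups did not overlap in either diet, and the lower values were those with Adeno-Cre. Slc1a2 fell 1.34-fold in fasted mice (log2 change -0.42 ± 0.08, limma adjusted p = 0.0148) and had a change of -0.26 ± 0.08 in fed mice (limma adjusted p = 0.172). The fasted call was lost without Adeno-Cre fasted replicate 1 or 2 or Adeno-GFP fasted replicate 1, where the adjusted p reached 0.065. Averaged over both diets the change was -0.34 ± 0.06 (limma adjusted p = 0.00414), and this call held without each of the 12 arrays in turn, with adjusted p between 0.00234 and 0.0134.

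Rhbg encodes an ammonium transporter of the Rh family on the basolateral membrane of pericentral hepatocytes. Its level was 6.86, 6.69 and 6.87 in Adeno-GFP fed, 6.51, 6.46 and 6.44 in Adeno-Cre fed, 6.88, 6.69 and 6.80 in Adeno-GFP fasted and 6.70, 6.67 and 6.57 in Adeno-Cre fasted arrays. The fed groups were apart and the fasted groups overlapped. Rhbg had log2 changes of -0.33 ± 0.08 in fed mice (limma adjusted p = 0.0618) and -0.14 ± 0.08 in fasted mice (limma adjusted p = 0.389). Over both diets together it fell by 0.24 ± 0.06 (limma adjusted p = 0.0262), a call lost on leaving out replicate 2 or 3 of Adeno-Cre fed, replicate 2 of Adeno-Cre fasted, or replicate 1 or 3 of either Adeno-GFP group (adjusted p up to 0.0711).

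The 2 genes of ascorbate synthesis, Gulo and Rgn, were lower as well. Gulo encodes L-gulonolactone oxidase, the last enzyme of vitamin C synthesis in the mouse. Its level was 9.72, 9.81 and 9.84 in Adeno-GFP fed arrays and 9.12, 9.43 and 9.03 in Adeno-Cre fed arrays. With fasting it was 9.83, 9.54 and 9.50 with Adeno-GFP and 9.16, 9.06 and 9.09 with Adeno-Cre. The Adeno-Cre arrays were the lower ones in both diets without overlap. Gulo fell 1.51-fold in fed mice (log2 change -0.60 ± 0.11, limma adjusted p = 0.0273) and 1.43-fold in fasted mice (log2 change -0.52 ± 0.11, limma adjusted p = 0.0301). Its fed call was lost without any fed array other than Adeno-Cre fed replicate 2, and its fasted call without any fasted array other than Adeno-GFP fasted replicate 3, with adjusted p up to 0.114 and 0.116. Averaged over both diets the change was -0.56 ± 0.08 (limma adjusted p = 0.00132), the largest of the 10 genes, and this call held without each array in turn (adjusted p at most 0.00542).

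Rgn encodes regucalcin, also called gluconolactonase, the enzyme that forms the lactone that Gulo oxidises. It was 12.63, 12.63 and 12.64 in the Adeno-GFP fed arrays and 12.36, 12.44 and 12.42 in the Adeno-Cre fed arrays. In fasted mice it was 11.91, 12.05 and 11.97 with Adeno-GFP and 11.58, 11.78 and 11.67 with Adeno-Cre. No 2 of its 4 groups overlapped, and the order was Adeno-GFP fed, Adeno-Cre fed, Adeno-GFP fasted, Adeno-Cre fasted from high to low. The change with Adeno-Cre was -0.23 ± 0.07 in fed mice (limma adjusted p = 0.191) and -0.30 ± 0.07 in fasted mice (limma adjusted p = 0.0497). The fasted call was lost without each array in turn except Adeno-Cre fasted replicate 2, with adjusted p between 0.0498 and 0.165. Averaged over both diets Rgn fell 1.20-fold (log2 change -0.26 ± 0.05, limma adjusted p = 0.0103), with an adjusted p of at most 0.0294 without any array.

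Among the genes tied to the Wnt signal, Lect2 encodes a hepatocyte secreted protein that β-catenin controls in liver. Its level was 10.91, 10.82 and 10.73 in Adeno-GFP fed arrays against 10.28, 10.47 and 10.29 in Adeno-Cre fed arrays. After fasting the values were 10.57, 10.45 and 10.36 with Adeno-GFP and 10.37, 10.52 and 10.24 with Adeno-Cre. The fed groups were apart and the fasted groups overlapped. Lect2 fell 1.39-fold in fed mice (log2 change -0.47 ± 0.09, limma adjusted p = 0.0317) and had a change of -0.08 ± 0.09 in fasted mice (limma adjusted p = 0.715). Its average over the diets fell by 0.28 ± 0.07 (limma adjusted p = 0.031). The fed call was lost without any fed array other than Adeno-Cre fed replicate 2 (adjusted p up to 0.131). The averaged call was kept only without replicate 2 of either Adeno-Cre group or replicate 3 of either Adeno-GFP group, and was lost without each other array (up to 0.0796).

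Tbx3 encodes a T-box transcription factor that marks pericentral hepatocytes. Its level was 7.52, 7.71 and 7.61 in Adeno-GFP fed arrays and 7.20, 6.81 and 7.08 in Adeno-Cre fed arrays. In fasted mice it was 7.52, 7.56 and 7.24 with Adeno-GFP and 7.18, 7.07 and 7.20 with Adeno-Cre. The Adeno-Cre arrays were lower in both diets, by a narrow gap after fasting. Tbx3 fell by 33.4% in fed mice (log2 change -0.59 ± 0.11, limma adjusted p = 0.0273) and had a change of -0.29 ± 0.11 in fasted mice (limma adjusted p = 0.216). The fed call was lost without any fed array other than Adeno-Cre fed replicate 1 (adjusted p up to 0.11), whereas the average over both diets, -0.44 ± 0.08 (limma adjusted p = 0.00648), held without each array (at most 0.021).

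Lgr5 encodes a receptor for R-spondins and is itself a Wnt target in hepatocytes at the central vein. It was at 7.99, 7.98 and 7.74 in Adeno-GFP fed arrays and at 7.34, 7.38 and 7.50 in Adeno-Cre fed arrays. After fasting the levels were 7.42, 7.87 and 7.62 with Adeno-GFP and 7.55, 7.34 and 7.33 with Adeno-Cre. Only the fed groups were apart. The change was -0.50 ± 0.12 in fed mice (limma adjusted p = 0.061) and -0.23 ± 0.12 in fasted mice (limma adjusted p = 0.357). Lgr5 fell 1.29-fold on average over the diets (log2 change -0.36 ± 0.08, limma adjusted p = 0.0237), a call lost on leaving out replicate 1 or 2 of either fed group, or replicate 2 of Adeno-Cre fasted (adjusted p up to 0.0626). In the fit over all probe sets, a second probe set of Lgr5 gave -0.27 over both diets (limma adjusted p = 0.2695). The one used had an adjusted p of 0.0572 in that fit (limma).

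Axin2 and Cyp2e1 did not pass the test in any comparison. Axin2 encodes a scaffold protein of the complex that degrades β-catenin and is a widely used Wnt target. Its level was 6.31, 6.26 and 6.37 in Adeno-GFP fed, 6.26, 6.31 and 6.33 in Adeno-Cre fed, 6.46, 6.35 and 6.40 in Adeno-GFP fasted and 6.22, 6.18 and 6.28 in Adeno-Cre fasted arrays. The fed groups overlapped and the fasted groups were apart. Its change was -0.01 ± 0.07 in fed mice (limma adjusted p = 0.966) and -0.18 ± 0.07 in fasted mice (limma adjusted p = 0.215), with an average of -0.10 and a 95% interval from -0.20 to 0.01. In the fit over all probe sets, a second Axin2 probe set gave -0.30 in fasted mice, where the one used gave -0.18. Cyp2e1 encodes the P450 enzyme that oxidises ethanol and many small solvents, and is a classical pericentral gene. It varied little, from 12.92 to 12.98 over the fed arrays and from 12.95 to 13.10 over the fasted arrays. The 3 Adeno-Cre fed arrays, 12.94, 12.94 and 12.92, were all under the 3 Adeno-GFP fed arrays, 12.97, 12.95 and 12.98. The average change was -0.04 ± 0.05 (limma adjusted p = 0.69), with a 95% interval from -0.14 to 0.06. These levels were near the highest value of the table, 13.96, and whether the probe set still responds there was not tested.

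**Figure D2:**
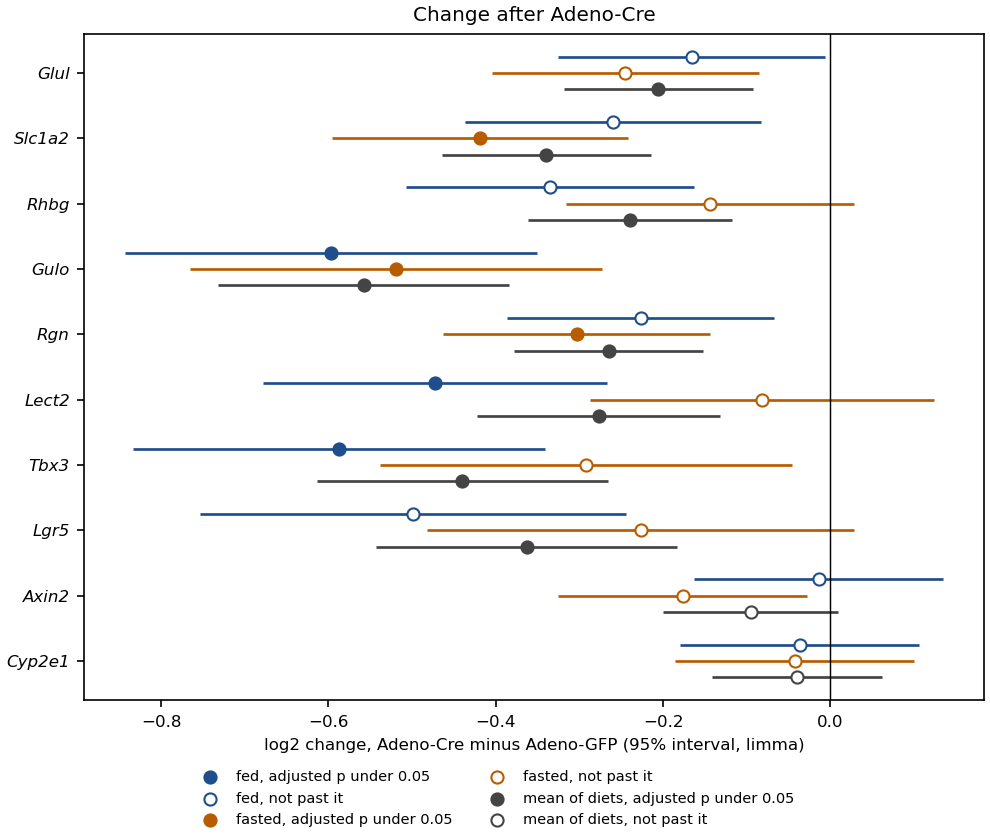
Log2 change, Adeno-Cre minus Adeno-GFP, of each of the 10 genes in fed mice, in fasted mice and averaged over both diets, with 95% intervals from limma; filled points have an adjusted p under 0.05. All points are left of 0, with Gulo farthest at -0.56 on average and Cyp2e1 nearest at -0.04.

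Whether the change with Adeno-Cre differed between diets was tested as the interaction of injection and diet. 0 of the 10 genes passed (limma), with 1 at an unadjusted p under 0.05, and over all genes 0.00451% (1 gene) passed and 1676 had an unadjusted p under 0.05. That member was Lect2, whose change was less negative in fasted mice by 0.39 ± 0.13, with a 95% interval from 0.10 to 0.68 (limma adjusted p = 0.607). The Tbx3 and Lgr5 estimates had the same sign, with intervals from -0.05 to 0.64 and from -0.09 to 0.63. The lists of genes that passed in fed and in fasted mice are therefore not shown to differ.

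With fasting, Rgn was lower under either injection. In Adeno-GFP mice Rgn fell 1.57-fold with fasting (log2 change -0.65 ± 0.07, limma adjusted p = 0.000799), and in Adeno-Cre mice 1.66-fold (-0.73 ± 0.07, limma adjusted p = 0.000573). Averaged over both injections the change was -0.69 ± 0.05 (limma adjusted p = 1.84e-05), and it passed without each of the 12 arrays in turn. No other of the 10 genes passed in these 3 comparisons (limma), and with Rgn included 4, 2 and 3 of the 10 had an unadjusted p under 0.05, against 16.7%, 16% and 21.9% of all genes. The background of adjusted calls was 1.87% lower and 1.2% higher in Adeno-GFP mice, 1.17% lower and 1.5% higher in Adeno-Cre mice, and 4.32% lower and 4.02% higher on average. Of the others, Lect2 had a change of -0.36 ± 0.09 in Adeno-GFP mice (limma adjusted p = 0.066), where the fed and fasted arrays did not overlap, and of 0.03 ± 0.09 in Adeno-Cre mice (limma adjusted p = 0.901). Slc1a2 was the highest in the fasted Adeno-GFP group, with all 3 arrays above those of the fed Adeno-GFP group, and its change there was 0.24 ± 0.08 (limma adjusted p = 0.153). Lgr5 had a change of -0.27 ± 0.12 in Adeno-GFP mice (limma adjusted p = 0.272) and of 0.00 ± 0.12 in Adeno-Cre mice. Its second probe set gave -0.38 and -0.15. Rhbg had a change of 0.18 ± 0.08 in Adeno-Cre mice (limma adjusted p = 0.299), where the fasted arrays were above the fed ones, and of -0.01 ± 0.08 in Adeno-GFP mice. Gulo, Glul, Tbx3, Axin2 and Cyp2e1 had average fasting changes between -0.13 and 0.05. The median change with fasting was -0.06 over the 10 genes and 0.01 over all genes.

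**Figure D3:**
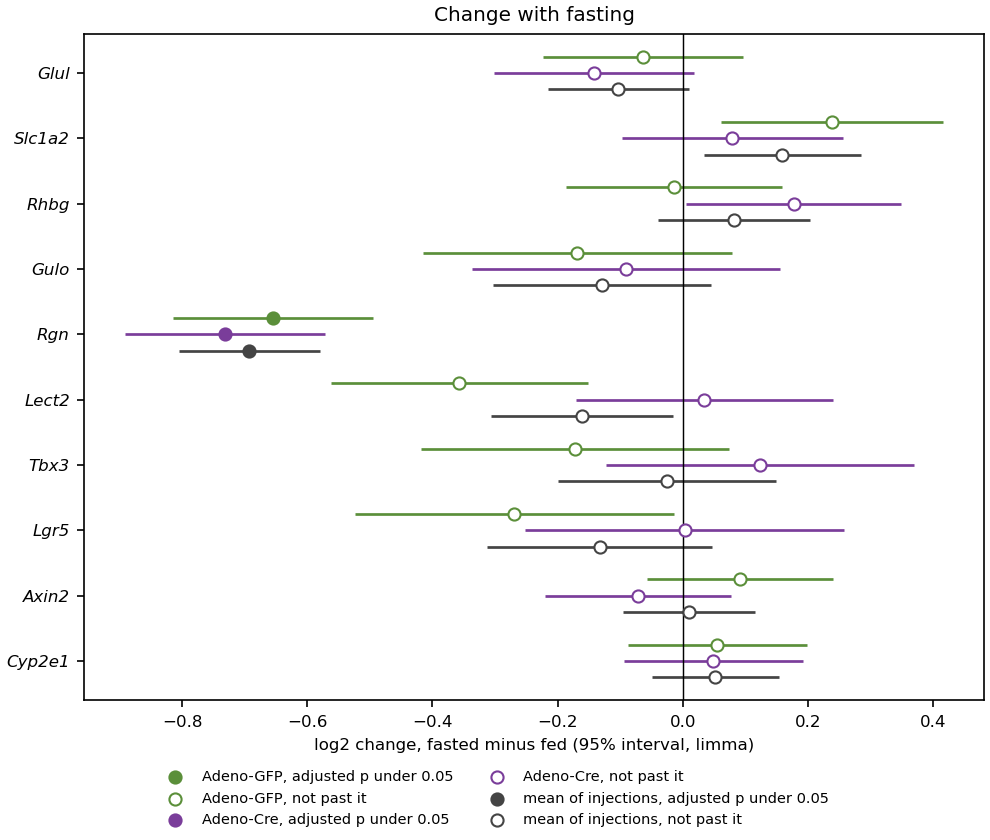
Log2 change, fasted minus fed, of each of the 10 genes in Adeno-GFP mice, in Adeno-Cre mice and averaged over both injections, with 95% intervals from limma; filled points have an adjusted p under 0.05. Rgn stands alone with filled points, at -0.65, -0.73 and -0.69.

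The order of the group levels differed between genes. For Gulo and Glul the order was Adeno-GFP fed, Adeno-GFP fasted, Adeno-Cre fed, Adeno-Cre fasted, with the step between Adeno-GFP fasted and Adeno-Cre fed free of overlap. The 2 Adeno-GFP groups overlapped for both genes, and the 2 Adeno-Cre groups overlapped for Gulo and not for Glul. For Slc1a2 the order was Adeno-GFP fasted, Adeno-GFP fed, Adeno-Cre fasted, Adeno-Cre fed, and the last pair did not differ beyond its spread. Lect2 had the Adeno-GFP fed group above 3 groups that did not differ beyond their spread. Tbx3, Lgr5 and Rhbg had the Adeno-GFP fed group first and the Adeno-Cre fed group last, and only the last step of Rhbg and the middle step of Tbx3 were free of overlap. Steps between neighbouring groups were at most 0.09 for Axin2 and Cyp2e1. Averaged over the 10 genes after centring each on its own mean, the Adeno-GFP fed arrays were at 0.197 to 0.216, the Adeno-GFP fasted arrays at 0.022 to 0.112, the Adeno-Cre fed arrays at -0.139 to -0.079 and the Adeno-Cre fasted arrays at -0.181 to -0.162.

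The 10 genes moved together mainly through the groups. Over the 45 pairs, the Pearson correlation over the 12 arrays had a median of 0.53, from -0.301 for Rgn and Cyp2e1 to 0.845 for Glul and Gulo, and was positive in 42 pairs. After removing each group's mean the median was 0.02, and 23 pairs were positive. These points share arrays and the 4 group means, so they are a description of these samples. By the same measure, among the 11089 genes at or above the median level, the genes most like Glul were Proz (0.938), Hsd17b7 (0.919), Acadsb (0.918), Aldoc (0.914) and Ggcx (0.908). Those most like Gulo were F13b (0.931), Fn1 (0.912), Gne (0.906), F10 (0.905) and Crebl2 (0.9).

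The Wnt pathway around these genes was described from gene lists. As an average of both diets, 0 of 9 ligand, R-spondin and secretion genes passed in either direction (limma), with 3 at an unadjusted p under 0.05 against 19.5% of all genes, and their median change was -0.06. Rspo3, the R-spondin of the central vein, had a change of -0.17 on average (limma adjusted p = 0.203), made up of -0.34 in fed mice (limma adjusted p = 0.145) and -0.01 in fasted mice (limma adjusted p = 0.986). Wnt9b had a change of -0.16 on average (limma adjusted p = 0.244) and Wnt2, at a dim 6.09, one of 0.00 (limma adjusted p = 0.986). Of 16 receptor and inhibitor genes 1 passed as lower, Fzd8 (-0.25, limma adjusted p = 0.0443), with Lgr4 at 0.07 and the ubiquitin ligase Znrf3 at 0.02. Of 13 relay genes 0 passed, with 4 at an unadjusted p under 0.05 (limma), against 19.5% of all genes. Ctnnb1, which encodes β-catenin, had a change of 0.14 (limma adjusted p = 0.186). Of 10 other Wnt targets 1 fell, Rnf43, a feedback inhibitor that removes Frizzled from the membrane (-0.47, limma adjusted p = 0.00744, and -0.55 in fed mice, limma adjusted p = 0.0472). As a list, these 10 targets had a median change of -0.115 on average. Of the 10, 8 were negative, against 59.9% of all genes, and 3 had an unadjusted p under 0.05 (limma), against 19.5%. In fed mice the median was -0.18, with 6 at an unadjusted p under 0.05 in either direction, against 12.4% of all genes. In fasted mice the median was -0.09, with 1 under 0.05 against 16.7%. The members' own count past the threshold on average was 8 of 10, and the pathway list with the most held 1, while 2.03% of all genes were lower. The lists differed in signal level. Under the median gene mean were 1 of 10 members, 5 of 10 other Wnt targets and 6 of 16 receptor and inhibitor genes. So were 3 of 9 ligand, R-spondin and secretion genes and 1 of 13 relay genes. The members were chosen with earlier results known, so these counts are descriptions.

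Other genes of the same metabolic roles were counted in the same way, and over both diets 2.03% of all genes fell and 3.55% rose. Of 13 further ammonia and glutamine genes 4 fell over both diets and 0 rose, with a median of -0.16: Oat, which makes glutamate semialdehyde from ornithine (-0.44, limma adjusted p = 0.00512), Slc38a3, a glutamine transporter (-0.37, limma adjusted p = 0.00966), and Aldh4a1 (-0.29) and Arg1 (-0.22), which were named after their values were seen. Of 6 further ascorbate genes 1 rose and 0 fell: Ugdh, which makes the glucuronate precursor of the pathway in which Gulo is the last step (0.42, limma adjusted p = 0.00425).

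**Figure D4:**
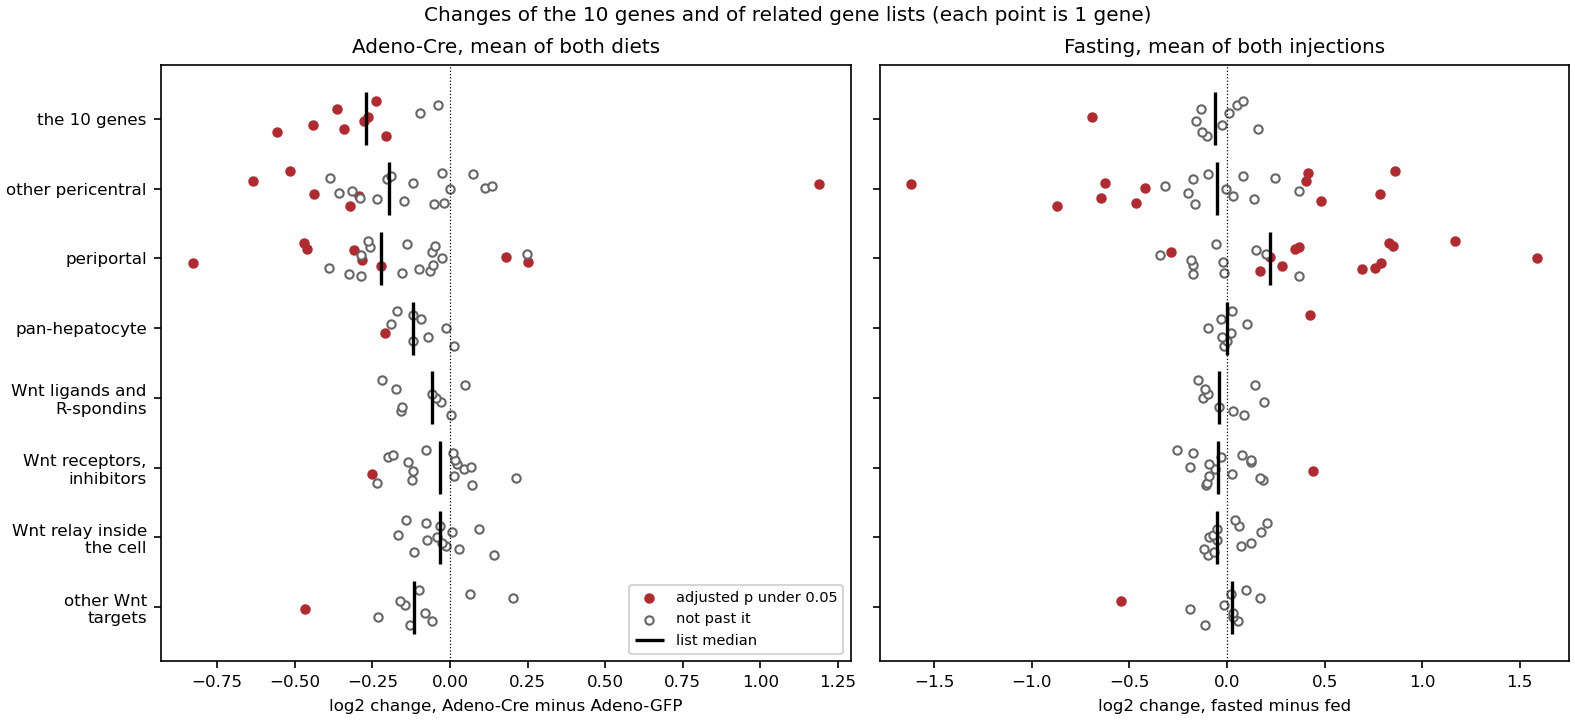
Log2 change with Adeno-Cre (average over both diets) and with fasting (average over both injections) of the 10 genes and of lists of related genes, 1 point per gene, filled where the adjusted p is under 0.05, with the median of each list as a bar. The medians with Adeno-Cre were -0.27 for the 10 genes, -0.20 for other pericentral genes and -0.22 for periportal genes.

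The fall was not confined to pericentral genes. Over both diets, 5 of 22 other pericentral genes fell and 1 rose, with a median of -0.20. Of 23 periportal genes 6 fell and 2 rose, with a median of -0.22. Over all genes 2.03% fell and 3.55% rose. In fed mice 20 of the 22 other pericentral genes had negative changes (median -0.26), against 55.6% of all genes. In fasted mice 13 of them did (median -0.11), against 58.4%, and 0 passed as lower and 1 as higher (limma). Of the 23 periportal genes 18 were negative in fed mice and 19 in fasted mice. Oat is counted here among the pericentral genes and Arg1 among the periportal genes, as well as among the ammonia and glutamine genes above. Of the named ones, Lhpp fell by 0.52 (limma adjusted p = 0.00352), Cyp1a2, a P450 enzyme of caffeine metabolism, by 0.32 (limma adjusted p = 0.0484) and Hal, the periportal enzyme of histidine breakdown, by 0.83 (limma adjusted p = 0.00102). Gstm3, a glutathione transferase, rose by 1.19 (limma adjusted p = 6.07e-05). The 9 pan-hepatocyte markers had a median of -0.12 with 1 lower, and Alb had a change of 0.01 (limma adjusted p = 0.907). No test compared the 10 genes with these lists.

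Markers of other cell types were set beside these genes. In fed mice the 12 liver endothelial markers had a median change of -0.31 with Adeno-Cre, and 0 passed (limma). Of the 12, 8 had an unadjusted p under 0.05 (limma), against 12.4% of all genes. For 8 of the 12, all Adeno-Cre arrays were under all Adeno-GFP arrays, against 11.5% of all genes. The array means of the list were 8.56 to 8.64 with Adeno-GFP and 7.997 to 8.488 with Adeno-Cre. In fasted mice the same means were 8.22 to 8.53 and 8.27 to 8.43, and the median change was -0.05. Adeno-Cre fed replicate 2 was the lowest of the fed arrays for endothelial and Kupffer cell markers (7.997 and 7.523), and leaving it out kept the fed calls of Gulo and Lect2 and lost that of Tbx3. Over both diets 2 of 11 stellate cell markers fell (median -0.20), against 2.03% of all genes, and 0 of 10 Kupffer cell markers passed (limma, median -0.22). Of the Kupffer cell markers 2 had an unadjusted p under 0.05 (limma), against 19.5% of all genes. Their median was -0.002 in fed mice (5 of 10 negative) and -0.38 in fasted mice (10 of 10 negative). The stellate cell median was -0.20 in fed mice (10 of 11 negative) and -0.24 in fasted mice (11 of 11 negative). Interferon response genes rose in fed Adeno-Cre mice, 12 of 15 with a median of 1.47, against 1.08% of all genes higher. Their array means were 9.916, 8.965 and 8.977 in Adeno-Cre fed replicates 1 to 3 against 7.721 to 8.014 with Adeno-GFP. In fasted mice 1 of the 15 rose, with a median of 0.16, against 2.26% of all genes higher. Of the cell cycle genes, 17 of 17 rose over both diets with a median of 1.49, against 3.55% of all genes higher. The part of these in the lower levels of the 10 genes was not tested.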

How the data were processed

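Liver RNA (200 ng, integrity number above 7, per the labels' protocols) of 12 samples was hybridised to Affymetrix arrays. The submitters' processing notes name RMA, and the deposited values are on its log2 scale, 1 per probe set. For the software, probe annotation and genome build, versions are not given in the sources here. RMA equalises the distribution of all arrays and compresses the changes of dim probe sets, so a shift of all genes would be removed. The number of arrays, 3 per group, limits the precision.

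Of 41345 probe sets, 23521 named 1 gene, 1814 several and 16010 none. The probe set with the highest mean was kept per gene (22180 genes). For the 10 members these were 17218349 (Glul), 17307801 (Gulo), 17373696 (Slc1a2), 17441595 (Tbx3), 17293020 (Lect2), 17533568 (Rgn), 17271197 (Axin2), 17245059 (Lgr5), 17484587 (Cyp2e1) and 17406688 (Rhbg). A mean per group was fitted to the 12 arrays with limma 3.58.1 (R 4.3.3), with Benjamini-Hochberg adjustment over all genes and a threshold of 0.05. The test was checked on simulated data for the fed comparison. It recovered 62% of added log2 changes of 0.5 and 92% of those of 1, and 9 of its 186 calls were false. The simulated noise was independent between genes, and changes were added to the Adeno-Cre fed group alone. These shares may therefore differ in the real data, and the average over both diets was not simulated. Changes smaller than 0.5 were not simulated. The named genes are the 10 members, the 5 genes most correlated with Glul and with Gulo, and up to 4 genes per list with the smallest p past the threshold, plus Wnt2, Wnt9b, Rspo3, Lgr4, Rnf43, Znrf3, Ctnnb1, Oat, Cyp1a2 and Alb. The members and lists were chosen with earlier results of these data known, so list counts are descriptions. Alternatives tried were leaving out dim genes or single arrays, repeated quantile normalization, a replicate block, other variance priors, fitting only the groups compared, and other handling of probe sets.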

Additional observations from a re-analysis of the deposited data

How the results depend on the processing

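Over both diets, Gulo, Slc1a2, Tbx3 and Rgn stayed past the threshold with Adeno-Cre under all 6 other settings and without each array in turn, as did Rgn with fasting, whereas Glul, Lect2, Lgr5 and Rhbg did not. The number of members past the threshold in fed mice, 3, became 5 without dim genes, 5 with a trended and robust prior, 0 when only the groups compared were fitted, 0 over all probe sets and 0 to 4 without single arrays. In fasted mice the 3 became 4 without dim genes, 4 with the trended and robust prior, 2 with repeated quantile normalization, 0 when only the groups compared were fitted, 1 over all probe sets and 0 to 2 without single arrays. Over both diets the 8 became 4 over all probe sets and 4 to 7 without single arrays. For fasting, the 1 member became 2 without dim genes, in Adeno-GFP mice and on average, and 2 with the trended and robust prior in Adeno-GFP mice. The calls over all genes in fed mice, 331, ranged from 91 over all probe sets and 145 with only the groups compared to 539 with the trended prior and 606 without dim genes. The causes were not tested. Repeated quantile normalization moved the median of all genes by at most 0.0115.

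Signs turned only for changes that had not passed. With repeated quantile normalization, Cyp2e1 with Adeno-Cre in fed mice was 0.00733 and Lgr5 with fasting in Adeno-Cre mice -0.0164. With the mean of the probe sets of a gene, Lgr5 in that comparison was -0.075 and the Glul interaction 0.00102. Without single arrays, Axin2 with Adeno-Cre in fed mice ranged from -0.0406 to 0.0133. For fasting in Adeno-GFP mice, Rhbg ranged from -0.0724 to 0.0339. For fasting in Adeno-Cre mice, Gulo ranged from -0.172 to 0.0271, Lect2 from -0.035 to 0.101 and Lgr5 from -0.069 to 0.0491. For fasting on average, Tbx3 ranged from -0.08 to 0.0253 and Axin2 from -0.00482 to 0.0237. For the interaction, Gulo ranged from -0.00302 to 0.196 and Cyp2e1 from -0.0338 to 0.0297.

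Under the replicate block, 2 members passed in fed mice, 2 in fasted mice and 7 over both diets. Arrays of the same replicate number showed little shared deviation: of 18 such pairs, 3 correlated above 0.1 (median 0.0134, highest 0.147). Of 12 arrays, 5 correlated best with their own number. These values give no sign of pairing, and with 3 arrays per group they cannot exclude it.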

Other observations

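With fasting, averaged over both injections, 12 of 23 periportal genes rose past the threshold and 1 fell past it (limma), and their median log2 change was 0.22. Of 22 other pericentral genes 5 rose and 6 fell, with a median of -0.05. Over all genes 4.02% rose and 4.32% fell by the same rule. Among the pericentral genes, Gstm3 fell by 1.62 and Cyp1a2 by 0.87, whereas Oat rose by 0.78 and Lhpp by 0.86. Apoa4, an apolipoprotein of triglyceride transport, rose by 1.17, and Cyp17a1, a steroid hydroxylase, by 1.59. Of the ammonia and glutamine genes 5 of 13 rose and 0 fell (Oat is counted in both lists), and of the ascorbate genes Ugdh fell by 0.47. Rgn was the member that fell with both Adeno-Cre and fasting, and Ugdh rose with Adeno-Cre and fell with fasting.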
